A study of Homo sapiens with 8 samples.

Results

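Peaks of a p53 chromatin immunoprecipitation with sequencing (ChIP-seq) experiment were examined at 7 immediate early and stress response genes, EGR1, FOS, JUN, IER2, ATF3, MYC and DUSP1. The members were taken by position: every called peak that overlapped a fixed window around one of these genes on build hg19 by 1 bp or more was counted. The windows held 132 of the 97582 peaks in the 4 deposited lists, 41 of 46658 in Dox replicate 1, 31 of 16642 in Dox replicate 2, 26 of 11304 in PBS replicate 1 and 34 of 22978 in PBS replicate 2. The cells were 293T, an established line from human embryonic kidney whose large T antigen, from a simian virus, binds p53. One group received doxorubicin at 0.5 µg/ml for 24 h (Dox) and the other received phosphate-buffered saline for the same time (PBS), with 2 ChIP libraries each and 1 antibody against p53. Replicate 1 of each group came from passage 3 and replicate 2 from passage 5, and the labels do not say whether the libraries came from separate cultures, so passage and replicate cannot be told apart. The 4 input samples were not analysed here. The lists do not state how deeply each library was sequenced, so no counting error is attached to the value of a peak.

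Immediate early genes are switched on within minutes of a growth or stress signal, from factors that already sit in the cell, and many of their products are themselves transcription factors. EGR1 encodes a zinc finger activator, FOS and JUN encode the partners of the AP-1 complex, IER2 encodes a small nuclear protein, ATF3 encodes a stress-induced repressor of the same leucine zipper class as FOS and JUN, MYC drives growth and division, and DUSP1 encodes a phosphatase that switches off mitogen-activated kinases. p53 binds DNA as a tetramer on a pair of short elements, and ATF3 and DUSP1 are among genes described as p53 targets. A called peak is a stretch enriched over the local background of the caller, which is a weaker statement than p53 binding.

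Of the 7 windows, 6 held a peak in all 4 libraries, in cells given doxorubicin and in cells given PBS alike. MYC was the exception, with no peak in PBS replicate 1. Among all 24-kb tiles of the genome, 3.50% held a peak in all 4 libraries, and 19.5%, 8.86%, 6.41% and 12.0% held one in Dox replicate 1, Dox replicate 2, PBS replicate 1 and PBS replicate 2. The tiles were not matched for genes or mappable sequence, so this share describes the genome and does not set these windows apart from windows at other genes. IER2 and ATF3 held the most peaks, with 30 each over the 4 libraries, and MYC the fewest, with 6. ATF3 has the longest window, 76 kb against 23 to 26 kb for the others.

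**Figure D1:**
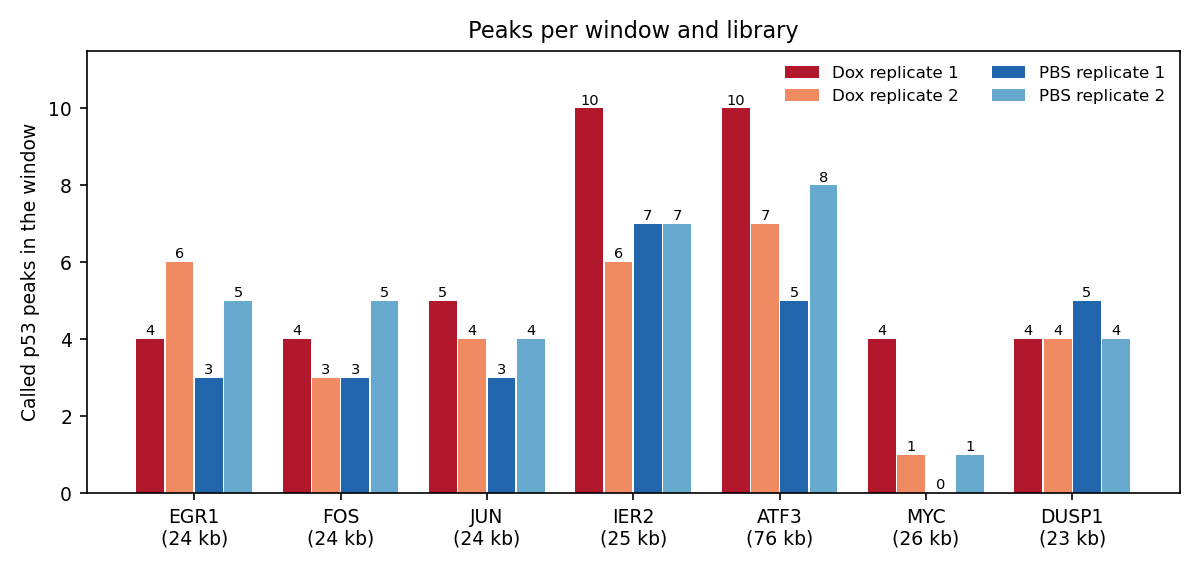
Number of called p53 peaks (y axis) overlapping each gene's window (x axis, window length in kb in brackets), 1 bar per library, with the count above it. All windows except MYC hold at least 3 peaks in every library, and MYC holds 4, 1, 0 and 1.

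The sequence just before the gene start is shown for the 4 genes whose leading site had a false discovery rate q of at most 0.05 in at least 3 libraries. A site is a run of overlapping peaks from the 4 lists, and the leading site of a window is the one called in the most libraries, then the one with the largest summed −log10 p. These are the 250 bases before the start in RefSeq on GRCh38.p14, read on the gene's strand. The stretches are chromosome 5 from 138465229 to 138465478 (plus strand) for EGR1, chromosome 1 from 58784048 to 58784297 (minus strand) for JUN, chromosome 19 from 13150161 to 13150410 (plus strand) for IER2 and chromosome 5 from 172771196 to 172771445 (minus strand) for DUSP1. Capitals mark the CArG box, the site of serum response factor, and TGACG, the core of the cAMP response element, each searched on both strands.
EGR1: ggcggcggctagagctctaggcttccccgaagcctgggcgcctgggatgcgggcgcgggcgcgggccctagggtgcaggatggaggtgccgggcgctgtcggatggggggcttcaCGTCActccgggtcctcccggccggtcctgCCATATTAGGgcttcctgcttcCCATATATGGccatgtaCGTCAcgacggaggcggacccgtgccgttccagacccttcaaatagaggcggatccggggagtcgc
JUN: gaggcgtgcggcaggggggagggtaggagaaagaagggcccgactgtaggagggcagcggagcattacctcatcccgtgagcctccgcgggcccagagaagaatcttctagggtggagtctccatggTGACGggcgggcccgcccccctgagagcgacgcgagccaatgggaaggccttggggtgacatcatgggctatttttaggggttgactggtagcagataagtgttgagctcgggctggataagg
IER2: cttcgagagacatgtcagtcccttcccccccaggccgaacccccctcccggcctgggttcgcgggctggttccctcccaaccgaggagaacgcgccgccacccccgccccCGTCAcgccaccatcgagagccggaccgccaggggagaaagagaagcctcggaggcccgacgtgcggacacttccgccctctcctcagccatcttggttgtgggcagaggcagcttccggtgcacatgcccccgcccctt
DUSP1: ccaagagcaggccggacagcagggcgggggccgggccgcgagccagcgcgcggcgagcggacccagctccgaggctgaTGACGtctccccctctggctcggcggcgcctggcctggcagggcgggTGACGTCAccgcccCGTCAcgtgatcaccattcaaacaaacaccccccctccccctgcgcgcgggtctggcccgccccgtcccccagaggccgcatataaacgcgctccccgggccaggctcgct

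EGR1 held 2 CArG boxes, from base 105 to 96 and from base 83 to 74 before the start, and 1.16% of the 35116 RefSeq promoters of this length held any. TGACG was found 4 times before DUSP1, a pair of them overlapping on opposite strands in the full element TGACGTCA, which 1.65% of promoters held. EGR1 held the core 2 times, JUN, IER2 and FOS each held it 1 time, and neither start of ATF3 held it, against 21.2% of promoters with at least 1 match. Bases G and C made up 62% to 74.4% of the stretches with the core. They made up 49.2% and 44.8% before the ATF3 starts, and the median over all promoters was 58%. The shares of promoters with a motif were not matched for this. The 10-base p53 element, searched without mismatch, occurred in none of the stretches before EGR1, FOS, JUN, IER2, DUSP1 or either start of ATF3, and in 5.57% of all promoters. The 7-base motif TGANTCA, which AP-1 binds, was likewise found in none of them and in 6.57% of all promoters. Other forms of an AP-1 site were not searched. The peaks are on hg19 and these sequences on GRCh38, so whether a peak covered them was not tested.

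EGR1 lies in the window chr5:137791000-137815000 and had the longest stretch of enrichment of the 7 genes. Its window held 4 and 6 peaks in Dox replicates 1 and 2 and 3 and 5 in PBS replicates 1 and 2. All 18 had their summit in the central 33.3% of the window. Merging the overlapping peaks of the 4 libraries gave a site of 6081 bp, from 137800948 to 137807028, built from 15 of the 18 peaks. Its strongest peak had 6.11-fold enrichment in Dox replicate 1, 8.17-fold in Dox replicate 2, 3.58-fold in PBS replicate 1 and 10.4-fold in PBS replicate 2. Fold enrichments are the authors' values and their scale differs between libraries, so the place of a peak in its own list is given beside them. These peaks stood at the percentiles 99.2, 99.5, 89.3 and 99.8 of fold enrichment in their lists. By p they ranked 267, 115, 964 and 94, ties sharing the best rank. The EGR1 peak of PBS replicate 2 was the highest-ranking peak of that list in any of the 7 windows.

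The EGR1 site had a front and a back part. The back part carried the strongest peak in 3 libraries, with summits at 137805396, 137806062 and 137805440 in Dox replicate 1, Dox replicate 2 and PBS replicate 2. In those libraries the peak spanned 2169, 2867 and 3001 bp. In PBS replicate 1 the same part held a peak of 1867 bp with 3.25-fold enrichment, whose −log10 q was 0. In the front part, 3 libraries had a summit within 11 bp of each other, at 137801586 in Dox replicate 1 (4.83-fold), 137801578 in Dox replicate 2 (4.09-fold) and 137801575 in PBS replicate 1 (3.58-fold). PBS replicate 2 peaked there at 137802091, with 4.65-fold enrichment. In the front part q was at most 0.05 in Dox replicate 1 and PBS replicate 2 and in neither of the others. Because the strongest peak lay in the front part in PBS replicate 1 and in the back part in the others, the summits spread over 4487 bp, the widest spread among the 3840 sites of the genome with a peak in all 4 libraries, where the median was 205 bp. A second EGR1 site, from 137799634 to 137800732, was called in every library except PBS replicate 1, with 2.92-fold to 4.09-fold enrichment.

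**Figure D2:**
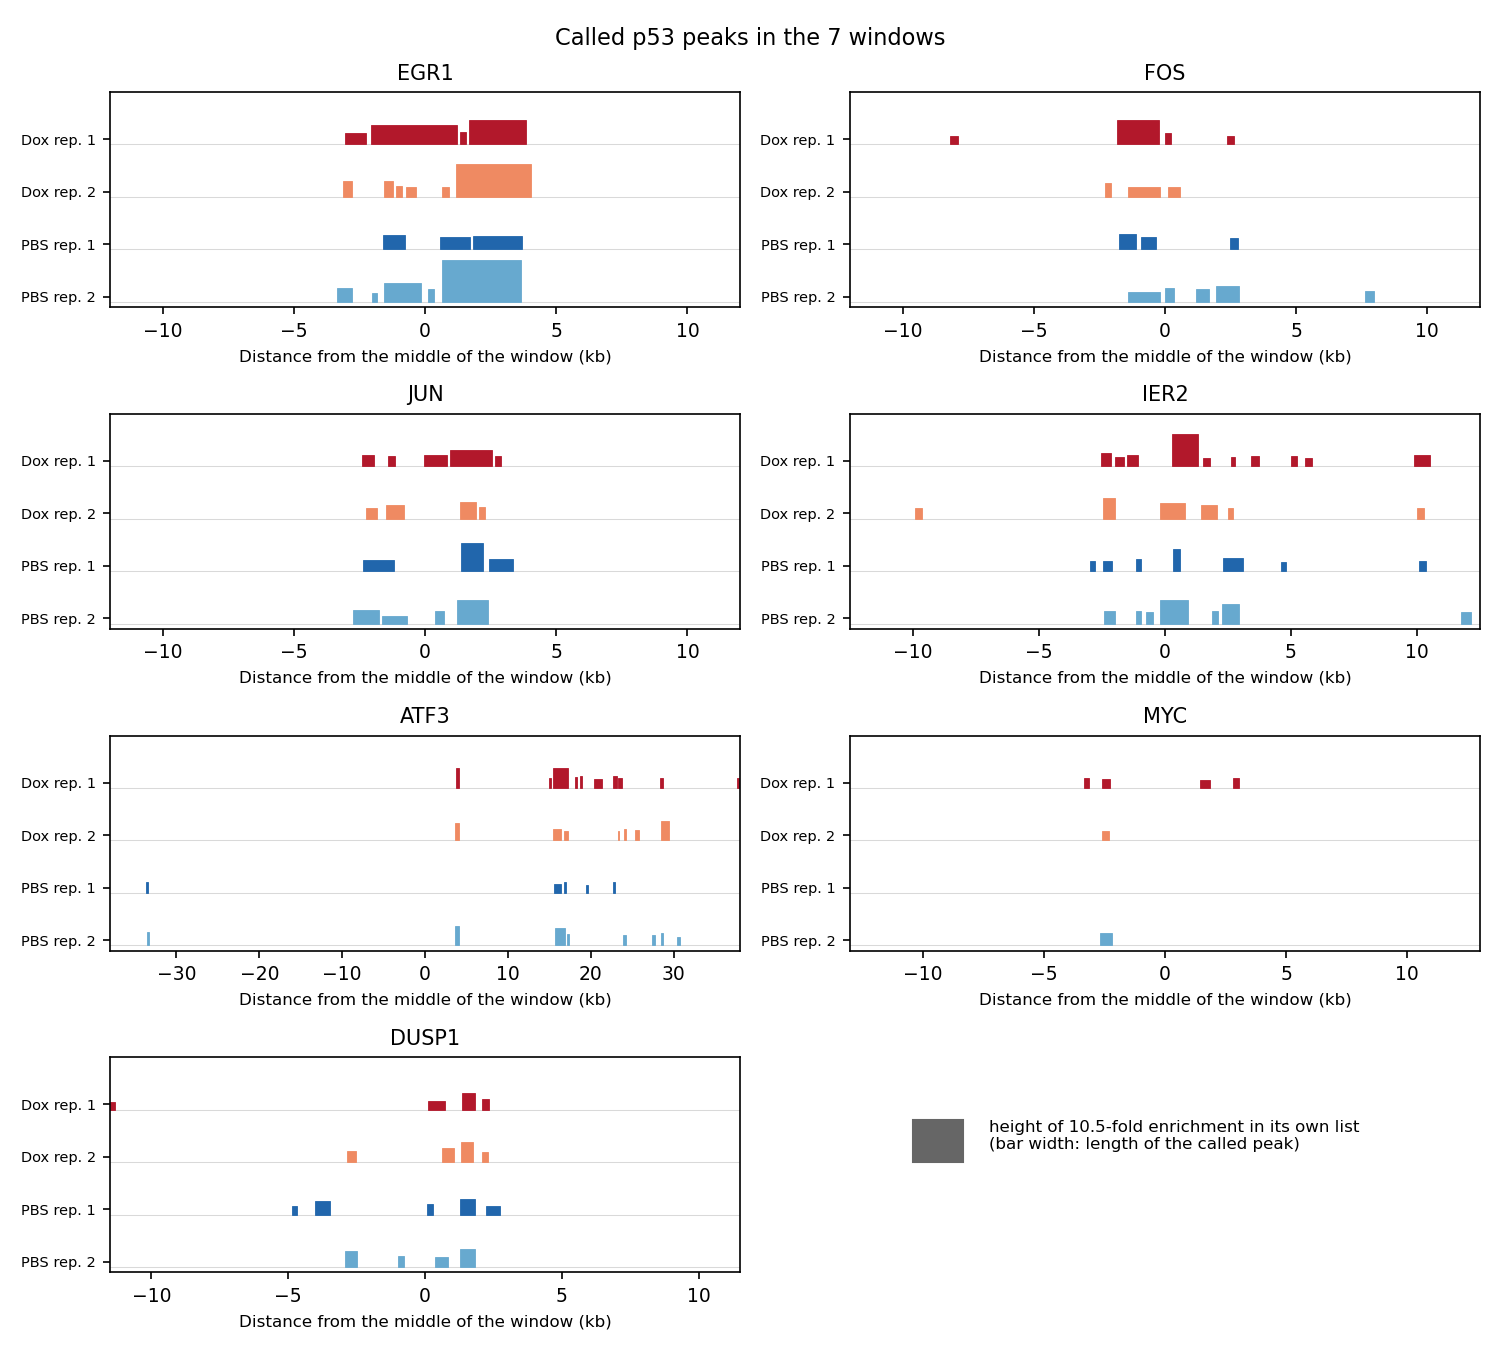
Called p53 peaks in each window, placed by distance from the middle of the window (x axis, kb), 1 row per library. The width of a bar is the length of the peak and its height the fold enrichment in its own list (grey key). Peaks gather near the middle of 6 windows, and in ATF3 28 of 30 summits lie to the right of it.

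JUN, in the window chr1:59236000-59260000, gave a leading site with q of at most 0.05 in all 4 libraries. The site ran from 59248948 to 59251346, and the enrichment was 4.12-fold in Dox replicate 1, 4.10-fold in Dox replicate 2, 7.12-fold in PBS replicate 1 and 5.87-fold in PBS replicate 2. The percentiles in the lists were 95.6, 94.4, 99.5 and 98.7, all of them high in the list, and the site held the best-ranked member peak of PBS replicate 1, at rank 97. The summits fell within 111 bp of each other, between 59249646 and 59249757. The folds of the PBS libraries were above those of the Dox libraries, but the scales differ between lists and no difference between the conditions was drawn from them. A second JUN site, from 59245270 to 59247300, was also called in all 4 libraries, at 2.78-fold in Dox replicate 1, 3.48-fold in Dox replicate 2, 2.70-fold in PBS replicate 1 and 3.52-fold in PBS replicate 2. There q was at most 0.05 in the 2 libraries of replicate number 2, but for peaks that did not overlap each other. Their summits lay at 59246705 in Dox replicate 2 and at 59245761 in PBS replicate 2. Over all 4 libraries the summits of this site spread over 944 bp. The remaining JUN site, from 59247964 to 59248832, had a peak in Dox replicate 1 and PBS replicate 2.

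FOS encodes the partner of JUN, but its window, chr14:75735000-75759000, did not show the same pattern. The leading site, from 75745192 to 75746799, was called in all 4 libraries with 6.02-fold enrichment in Dox replicate 1, 2.36-fold in Dox replicate 2, 3.90-fold in PBS replicate 1 and 2.37-fold in PBS replicate 2. The percentiles were 99.2 and 14.4 for Dox and 93.3 and 16.9 for PBS. By fold enrichment, the libraries of replicate number 1, from passage 3, thus had the site near the top of their lists. Those of number 2, from passage 5, had it near the bottom, in both conditions. By p it ranked 585 of 46658 in Dox replicate 1 and 7134 of 16642 in Dox replicate 2. In PBS replicates 1 and 2 it ranked 964 of 11304 and 11983 of 22978. By p the libraries of number 2 thus had it near the middle of their lists. The summits of the site nevertheless lay within 137 bp, and Dox replicate 1 alone reached a q of at most 0.05. The remaining 6 FOS sites had peaks in 1 to 3 libraries, none with q of at most 0.05, the highest being 4.04-fold in PBS replicate 2 at the site from 75748957 to 75749815. At EGR1 the folds of the leading peak ran the other way, at 8.17-fold and 10.4-fold in number 2 and 6.11-fold and 3.58-fold in number 1. By percentile the Dox libraries barely differed there, at 99.2 in replicate 1 and 99.5 in replicate 2. Only PBS replicate 1 stood apart, at 89.3 against 99.8 in PBS replicate 2. Neither order was tested, since each number has 1 library per condition.

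**Figure D3:**
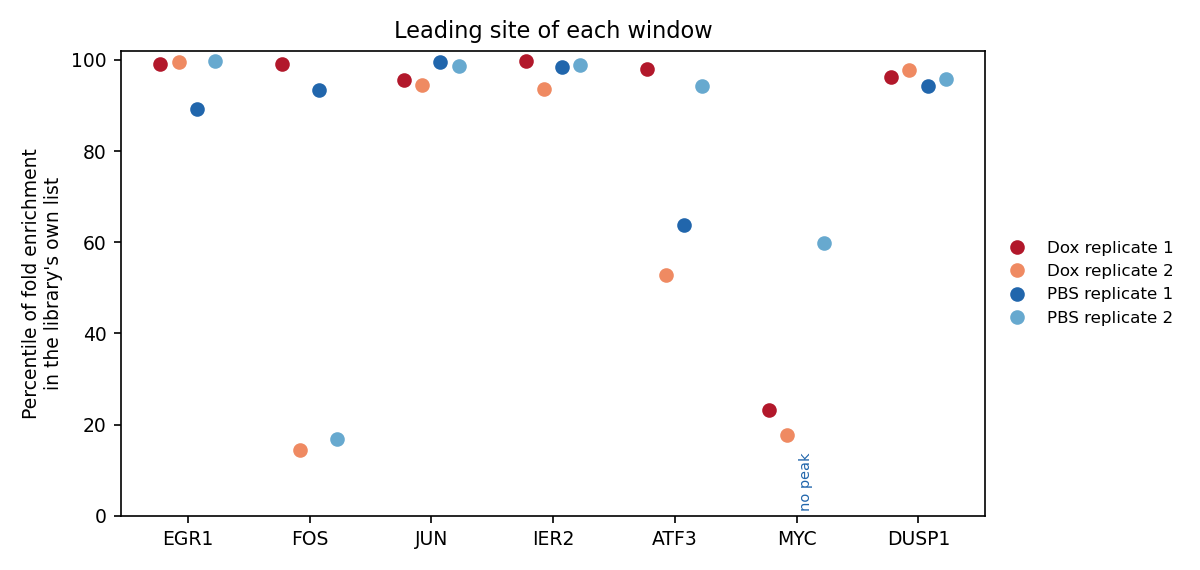
Percentile of fold enrichment within the library's own list (y axis) of the strongest peak at the leading site of each window (x axis), 1 point per library. JUN, IER2 and DUSP1 are above the percentile 93 in all 4 libraries, FOS splits by replicate number, and MYC is at 23.2, 17.8 and 59.9 with no peak in PBS replicate 1.

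IER2 lies in the window chr19:13251000-13276000, the one with the most peaks for its length. It held 10 and 6 peaks in Dox replicates 1 and 2 and 7 in each PBS library, counts reached by 0.18%, 0.146%, 0.0511% and 0.143% of all tiles of the same length in those libraries. The leading site, from 13263309 to 13264815, had 8.10-fold enrichment in Dox replicate 1, 4.05-fold in Dox replicate 2, 5.51-fold in PBS replicate 1 and 5.99-fold in PBS replicate 2. It was the other site, with that of JUN, where q was at most 0.05 in all 4 libraries, and the percentiles ran from 93.5 to 99.7. Its summits, 13263956, 13263927, 13263909 and 13263905 in the same order, lay within 51 bp, the tightest of the 10 member sites found in all 4 libraries. A further pair of IER2 sites was called in all 4 libraries. One, from 13260975 to 13261868, reached 5.07-fold in Dox replicate 2 and 2.46-fold to 3.27-fold in the others. The other, from 13265777 to 13266593, reached 4.84-fold in PBS replicate 2 and 2.37-fold to 3.25-fold in the others. Of the 14 IER2 sites, 8 were called in a single library.

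DUSP1, in the window chr5:172185000-172208000, had the leading site whose percentiles differed least between the libraries. The site ran over 563 bp, from 172197778 to 172198340, with 4.28-fold enrichment in Dox replicate 1, 4.96-fold in Dox replicate 2, 4.01-fold in PBS replicate 1 and 4.64-fold in PBS replicate 2. The percentiles were 96.3, 97.7, 94.3 and 95.9, and q was at most 0.05 in each library except PBS replicate 1, where the −log10 q was 0.257. The summits lay within 128 bp. A neighbouring site, from 172196585 to 172197563, was also called in all 4 libraries, with 2.20-fold to 3.67-fold enrichment and no q of at most 0.05. The other 6 DUSP1 sites had peaks in 1 to 3 libraries.

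ATF3 had a broad site in all 4 libraries and a narrow one away from it that held the best-ranked ATF3 peak in 3. The leading site, the 1 of 16 ATF3 sites called in all 4 libraries, ran from 212781467 to 212783431 in the window chr1:212728000-212804000. Its enrichment was 4.95-fold in Dox replicate 1, 2.79-fold in Dox replicate 2, 2.83-fold in PBS replicate 1 and 4.31-fold in PBS replicate 2, at the percentiles 98.0, 52.9, 63.8 and 94.3. The summits spread over 803 bp, because that of PBS replicate 1 lay at 212782839 and the others between 212782036 and 212782190. Another PBS replicate 1 peak of the site, with its summit at 212782126, had 2.34-fold enrichment, at the percentile 21.3. Dox replicate 1 and PBS replicate 2, the pair that shares neither condition nor passage, had q of at most 0.05 and the others did not. The narrow site, from 212769561 to 212770104, was singled out after its values were seen. It had 5.03-fold enrichment in Dox replicate 1, 4.28-fold in Dox replicate 2 and 4.75-fold in PBS replicate 2, q of at most 0.05 in each of these, and no peak in PBS replicate 1. Its summits lay within 47 bp of each other, and its peaks spanned 337 to 544 bp. A peak missing from that list is not evidence that the site was unbound there. Another ATF3 site, from 212794401 to 212795491, was likewise missing from PBS replicate 1 alone and had 2.52-fold enrichment in Dox replicate 1, 4.74-fold in Dox replicate 2 and 3.10-fold in PBS replicate 2. Its q was at most 0.05 in Dox replicate 2, where the summit lay at 212795160. The summits of Dox replicate 1 and PBS replicate 2 lay apart from it, at 212794542 and 212794517, so the spread was 643 bp.

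MYC, in the window chr8:128738000-128764000, had no peak above 3.02-fold, the lowest maximum of the 7 windows. The leading site, from 128748317 to 128748816, had 2.18-fold enrichment in Dox replicate 1, 2.42-fold in Dox replicate 2 and 3.02-fold in PBS replicate 2, at the percentiles 23.2, 17.8 and 59.9. By this percentile the leading FOS site stood lower still in Dox replicate 2, at 14.4, and in PBS replicate 2, at 16.9. By p the FOS site ranked above the MYC site in Dox replicate 2, at 7134 against 15799. In PBS replicate 2 it ranked below, at 11983 against 8885. No MYC peak had a q of at most 0.05, and the −log10 q was 0 for all 6. The other 3 MYC sites were called in Dox replicate 1 alone, the longest list, with 2.03-fold to 2.47-fold enrichment. A single peak is not unusual for a window of this length: 9.49% of tiles had at least 1 in Dox replicate 2 and 12.8% in PBS replicate 2. The 4 MYC peaks of Dox replicate 1 were a count that 2.56% of tiles reached in that library.

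The typical member peak stood near the middle of its list with Dox and above the middle with PBS. The median percentiles of fold enrichment were 55.8 and 49.3 in Dox replicates 1 and 2 and 67.1 and 71.6 in PBS replicates 1 and 2. A share of the member peaks stood high in their lists. The median of the member peaks was 2.52-fold in Dox replicate 1, 2.78-fold in Dox replicate 2, 2.87-fold in PBS replicate 1 and 3.22-fold in PBS replicate 2. The list medians were 2.47-fold, 2.78-fold, 2.64-fold and 2.85-fold. Peaks with q of at most 0.05 numbered 8 of 41, 8 of 31, 2 of 26 and 9 of 34 in the same order. Over the whole lists such peaks made up 3.65%, 4.84%, 2.56% and 5.84%. The member shares of 19.5%, 25.8%, 7.69% and 26.5% were each above the share of the list, and PBS replicate 1 rested on 2 peaks, those of JUN and IER2. Of these 27 peaks, none lay in the MYC window and 1 lay in that of FOS.

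Peaks in the windows were long. A length of 1 kb or more was reached by 6 of 41 peaks in Dox replicate 1, 3 of 31 in Dox replicate 2, 3 of 26 in PBS replicate 1 and 6 of 34 in PBS replicate 2, against 2.30%, 1.77%, 1.75% and 1.95% of the lists. Of these 18 long peaks, 13 lay at EGR1, FOS and JUN, and none at MYC or DUSP1. The median length was 326, 397, 438.5 and 421 bp in the windows and 281 to 288 bp in the lists. Outside ATF3, 90 of 102 peaks had their summit in the central 33.3% of the window, and the 12 others had 2.03-fold to 2.91-fold enrichment and a −log10 q of 0.

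**Figure D4:**
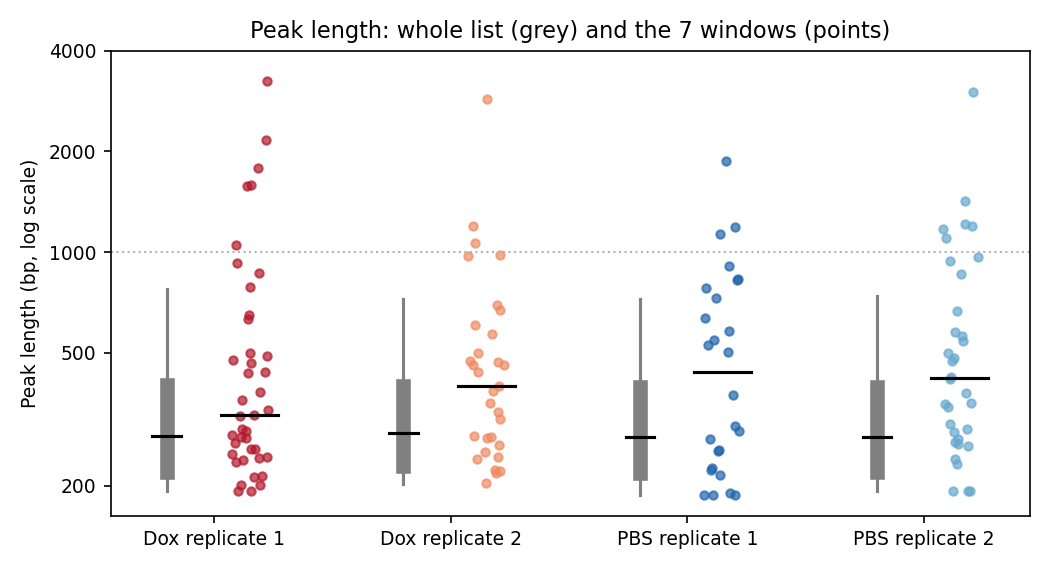
Peak length in bp (y axis, log scale) for each library. Grey bars give the whole list (thin line, percentiles 5 to 95; thick line, quartiles; black line, median) and points the member peaks with their median as a black line; the dotted line marks 1000 bp, above which lie 6, 3, 3 and 6 member peaks.

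The sites of the windows were set against the study's comparison of doxorubicin with PBS. The 132 peaks merged into 54 sites, of which 10 were called in all 4 libraries, 10 in 3, 6 in 2 and 28 in 1. Of all 63890 sites of the genome, 6.01% were called in all 4 libraries. The member share was 18.5%. Of the 10 sites in 3 libraries, 6 were missing from PBS replicate 1, the shortest list, and 0 from Dox replicate 1, the longest. The other 4 were missing from a library of number 2, 2 of them from each condition. Among those in PBS replicate 1 but not in PBS replicate 2 was an IER2 site far from the leading one, from 13273395 to 13274042, whose summits lay within 47 bp, with 2.64-fold to 2.78-fold enrichment. Apart from the narrow ATF3 site and the ATF3 site from 212794401, no site in fewer than 4 libraries had a q of at most 0.05. Of the single-library sites, 13 of 28 came from Dox replicate 1. The site in both Dox libraries and neither PBS library lay at ATF3, from 212789235 to 212789768, at 2.38-fold and 2.41-fold, beside a genome share of 3.11%. The site in both PBS libraries and neither Dox library also lay at ATF3, from 212732336 to 212732700, at 2.62-fold and 3.22-fold, beside a genome share of 0.928%. Neither had a q of at most 0.05 in any library. By the other ways of pairing the libraries, 3 sites were exclusive to a replicate number and 1 to a crossed pair. The genome shares of these other patterns were not counted, so no comparison is drawn from them.

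The number of peaks in the windows did not differ between the conditions beyond the spread of the libraries. The mean was 36 ± 7.07 with doxorubicin and 30 ± 5.66 with PBS (SD, n = 2 per group), a difference of 6 peaks (two-sided exact permutation p = 0.667, where 2 libraries against 2 allow no p below 0.333). Within replicate number 1 Dox had 15 more peaks than PBS, and within number 2 the difference was -3. The lists differed in length: with the same 11304 best peaks from each list, the windows held 17 and 23 peaks for Dox and 26 and 23 for PBS, a difference of -4.5.

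The authors' tables of peaks matched between the replicates held 20 pairs in the windows for Dox and 13 for PBS. The irreproducible discovery rate (IDR) of a pair is the expected share of irreproducible pairs among those at least as good. It was at most 0.05 for 11 of the 20 Dox pairs and 4 of the 13 PBS pairs, beside 27.5% and 15.0% of all pairs of those tables. Among Dox pairs the lowest IDR belonged to the narrow ATF3 site, at 1.14e-05, and the next to the leading IER2 site, at 6.04e-05. Among PBS pairs the lowest belonged to the leading JUN site, at 0.000123, and the next to the leading IER2 site, at 0.000725. The leading JUN site had an IDR of 0.0726 in the Dox table, above the limit, and the 2 JUN pairs under it there lay at the second site, at 0.0241 and 0.00826. The 4 PBS pairs under the limit lay at EGR1, JUN, IER2 and DUSP1. At EGR1 the PBS pair of the front part passed, at 0.0203, and that of the back part did not, at 0.0756, while the Dox table held the whole site as 1 pair, at 0.00104. FOS and ATF3 had Dox pairs under it, 1 and 3, and no PBS pair, and the MYC window held 1 Dox pair, with an IDR of 0.296, and no PBS pair. Each table rests on both libraries of a condition, and the PBS table includes the shortest list. The difference between the tables was not tested.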

How the data were processed

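The data were 4 libraries of p53 ChIP-seq, 2 each for Dox and PBS. BWA, MACS2 and build hg19 are named per the submitters' processing notes, without versions. The authors deposited 1 peak list per library, called at p under 0.05 per the peak names, with a fold enrichment (a ratio to the local background) and the p-value and q-value as −log10. For each condition the authors deposited a table of peaks paired between replicates, with the IDR, a q-value for a pair. The IDR was read as a value of the condition.

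Peaks overlapping the windows by 1 bp were counted, and peaks of the 4 lists that shared 1 bp were merged into sites. In each window the site in the most libraries, then with the largest summed −log10 p, was described in full, using the peak with the smallest p in each library. Positions are counted from 1, and summits are as deposited. Tiles ran from the chromosome start to its last peak. Counts were compared with an exact permutation test. Alternatives changed the threshold, list length, merging and libraries. The overlap and site steps were tested on simulated sites. RefSeq on GRCh38.p14 lists all 7 genes on the chromosomes of their windows and held promoters for 6. No gene annotation of hg19 was used, so gene starts were not placed and other immediate early genes were not examined. The members and lists were chosen with earlier results of these data known. p-values measure only the spread between these libraries. The scripts ran on Python 3.11.15 with pandas 2.3.3, numpy 2.4.6 and, for figures, matplotlib 3.10.9, and the test used scipy 1.17.1.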

Additional observations from a re-analysis of the deposited data

Results flagged for a closer look

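Dox had more peaks in the windows than PBS at one passage and fewer at the other, with 1 library per condition and passage, so the difference was not tested. Over all 7 windows Dox minus PBS was 15 peaks at passage 3 and -3 at passage 5. FOS gave 1 and -2, IER2 gave 3 and -1, and ATF3 gave 5 and -1. The whole lists had the same opposition, with 46658 against 11304 peaks at passage 3 and 16642 against 22978 at passage 5, and its part in these counts was not tested.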

How the results depend on the processing

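The Dox minus PBS difference kept its sign in 8 of 9 alternatives, and 14 of 31 alternative counts of sites, windows or pairs stayed within 1.5 times the reported count. The 9 alternatives were not separate checks. A replicate block leaves the mean difference unchanged by construction, and both stricter thresholds left the same number of peaks in each library. The Dox minus PBS difference of 6 peaks became -4.5 with lists of equal length, was 2.5 under either stricter threshold, and ran from 1 to 11 when a library was left out. Libraries of equal number share a passage across the conditions, and with that number as a replicate block the difference was 6 (exact sign-flip p = 1, smallest possible 0.5), which changed no call. Sites in all 4 libraries fell from 10 to 2 at q of at most 0.05 and likewise to 2 at −log10 p of at least 5, and ran from 10 to 17 with a library left out, the highest without PBS replicate 1. Sites exclusive to Dox went from 1 to 0 at q of at most 0.05 and to 0 at equal length, and ran from 3 to 16 with a library left out. Sites exclusive to PBS went from 1 to 0 at that q and to 3 at equal length, and ran from 1 to 8. Windows with a peak went from 6 to 2 in PBS replicate 1 at that q. Pairs went from 20 to 11 for Dox and from 13 to 4 for PBS at an IDR of at most 0.05. The stricter thresholds and shorter lists hold fewer peaks by construction. With a library left out, a site had to hold or lack a peak in fewer libraries, so these site counts tend to rise by construction. Other causes were not tested. Read depth is not given, so an uncalled peak is not an absent one.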
